A study of Rattus norvegicus with 8 samples.

Results

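The opioid and tachykinin genes of the rat striatum were followed in 8 rats, 4 that self-administered methamphetamine (METH) and 4 that self-administered saline. The set was fixed by gene symbol and holds 10 of the 17337 genes in the count table. It comprises 4 genes for peptide precursors (Pdyn, Penk, Pnoc and Tac1), 4 for opioid receptors (Oprm1, Oprd1, Oprk1 and Oprl1) and 2 for tachykinin receptors (Tacr1 and Tacr3). All 10 passed the filter on low counts and were among the 12014 genes tested.

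All rats were male Sprague-Dawley animals of wild-type genotype, trained on a lever with food and fitted with a jugular catheter that was flushed with saline containing heparin and gentamycin. The METH rats received 0.05 mg/kg METH per infusion during sessions of 2 h per day over 16 days, and the saline rats pressed the lever for saline on the same schedule. Animals with stable lever pressing over the last days were selected, and all were under ketamine and xylazine when the brain was taken. The age, the interval between the last session and tissue collection, and the part of the striatum that was dissected are not given in the sources used here.

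Opioid and tachykinin peptides are cut from long precursor proteins. Most neurons of the striatum are projection neurons of the direct pathway, which carry the dopamine D1 receptor and make dynorphins (from Pdyn) and substance P (from Tac1), or of the indirect pathway, which carry the D2 receptor and make enkephalins (from Penk). Dynorphins act mainly on the kappa receptor (Oprk1), enkephalins on the delta and mu receptors (Oprd1 and Oprm1), nociceptin (from Pnoc) on its own receptor (Oprl1), substance P on the neurokinin receptor encoded by Tacr1, and neurokinin B on that encoded by Tacr3. Dynorphin acting on kappa receptors is known to lower dopamine release in the striatum, and Pdyn is known to respond to D1 receptor stimulation. Mu receptors are concentrated in patches of the striatum called striosomes, and the surrounding tissue is called the matrix.

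Total counts lay between 18135939 and 20832550 in the saline rats and between 18520038 and 21211920 in the METH rats. Expression is given as CPM, the usual count scaled to library size (here after TMM scaling), and each rat was 1 library. The markers of striatal projection neurons were high in every rat, with Ppp1r1b (DARPP-32) between 6785 and 10288 CPM. Saline rat 1 stood apart by markers of cortical glutamatergic neurons. It had 1198 counts of Slc17a7 against 64 to 256 in the other rats, 74 of Neurod2 against 0 to 4, 66 of Neurod6 against 0 to 13, and 69 of Tbr1 against 1 to 9. Fezf2, also on that list, had 149 counts against 103 to 188. The first principal component of log2 CPM held 26.4% of the variance. Its scores were -4.17, -8.78, -24.6 and -11.7 for saline rats 1 to 4, and 5.29, 0.257, 39.5 and 4.17 for METH rats 1 to 4. All saline scores were thus below 0 and all METH scores above 0. METH rat 3 had the score furthest from 0, and saline rat 3 was at the opposite end. Results are therefore also given without saline rat 1 and METH rat 3, and each rat was left out in turn. Leaving out METH rat 3 removes the rat furthest along the direction that parts the groups.

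None of the 10 genes was called in METH rats against saline rats by the edgeR quasi-likelihood test, where a call required an FDR below 0.05 and a mean log2 CPM above 1. Among all genes tested 0.516% were called (0.449% higher and 0.0666% lower in METH rats), so that a count of 0 in 10 genes is near the background. DESeq2 and limma-voom also called 0 of the 10. At an unadjusted p below 0.05, 1 member was higher (Pdyn, where 6.26% of all genes were higher) and 2 were lower (Oprk1 and Oprl1, where 4.88% were lower). The fitted log2 fold change was above 0 for Pdyn, Penk and Tac1 and below 0 for Pnoc and all 6 receptors, with a median of -0.17 over the 10 genes, against -0.01 over all genes tested. The METH and saline values overlapped for every member, whereas 6.39% of all genes did not overlap.

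**Figure D1:**
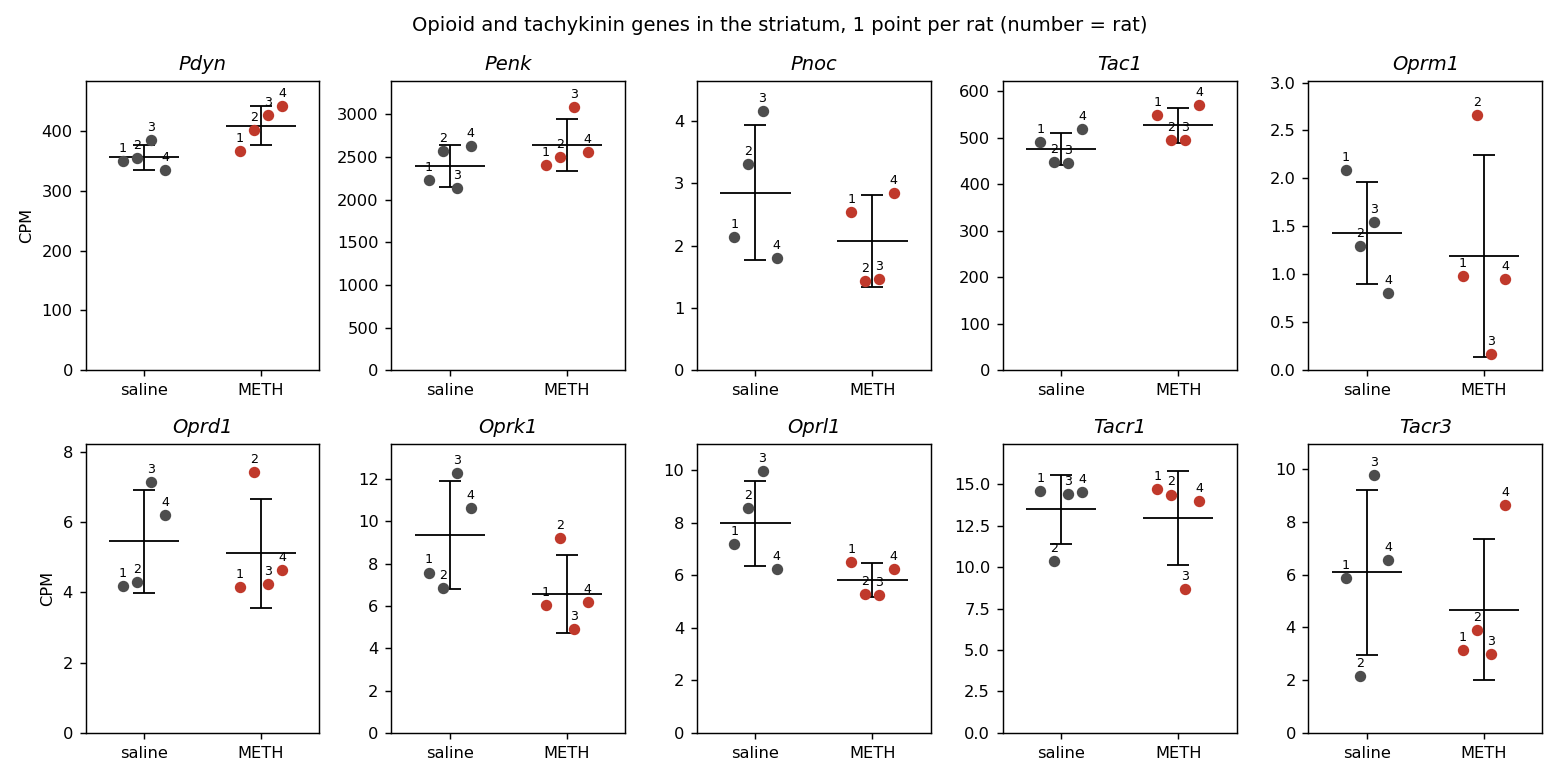
CPM of the 10 genes in each rat (y axis from 0, grey for saline, red for METH, the number beside a point is the rat), with the group mean and SD as a line and bar (n = 4 per group). Pdyn has 3 METH rats above the highest saline rat, and in every panel the groups overlap.

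Pdyn, which encodes prodynorphin, was at 350.2, 354, 384 and 334 CPM in saline rats 1 to 4 and at 366, 401, 427 and 442 CPM in METH rats 1 to 4. METH rats 2, 3 and 4 were above every saline rat, and METH rat 1 lay inside the saline range. The means were 356 ± 20.8 CPM in saline rats and 409 ± 33.2 CPM in METH rats (SD, n = 4 each). METH rats thus had a ratio of 1.15 to saline rats, or 0.20 on the log2 scale (standard error 0.08, 95% interval 0.03 to 0.37). In the edgeR fit this gave an FDR of 0.369 (unadjusted p = 0.0219), at rank 713 of the 12014 genes by p. An exact permutation test of log2 CPM over the 70 ways to label 4 of the 8 rats gave a two-sided p of 0.0571, where no p below 0.0286 is possible with 4 rats per group. Pdyn stayed at a log2 fold change of 0.20 without saline rat 1, 0.18 without METH rat 3 and 0.16 without METH rat 4, the lowest of the fits that left out 1 rat. The FDR over all alternatives ranged from 0.200 to 0.651.

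Tac1, the precursor of substance P and neurokinin A, was at 491, 448, 446 and 518 CPM in saline rats 1 to 4 and at 548, 495, 494 and 569 CPM in METH rats 1 to 4. METH rats 1 and 4 were above the saline range, and METH rats 2 and 3 lay within it. In METH rats Tac1 differed by 0.15 on the log2 scale (standard error 0.08, 95% interval -0.02 to 0.31) with an FDR of 0.491 by the edgeR quasi-likelihood test. The exact permutation test gave p = 0.114 (two-sided).

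Penk, the enkephalin precursor, was at 2230.0, 2577, 2132 and 2625 CPM in saline rats 1 to 4 and at 2408, 2507, 3093 and 2563 CPM in METH rats 1 to 4. Apart from METH rat 3, which was highest, the METH rats lay within the saline range. On the log2 scale the difference was 0.14 (standard error 0.09, 95% interval -0.05 to 0.34) with an FDR of 0.562 in the edgeR fit. Without METH rat 3 it was 0.06, and without both METH rat 3 and saline rat 1 it was 0.03. For these precursors the intervals reach at most a 1.29-fold higher level in METH rats for Pdyn, 1.27-fold for Penk and 1.24-fold for Tac1.

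Pnoc, which encodes the nociceptin precursor, was measured with 26 to 86 counts per rat. It was at 2.14, 3.30, 4.15 and 1.80 CPM in saline rats 1 to 4 and at 2.55, 1.43, 1.47 and 2.85 CPM in METH rats 1 to 4. METH rats 2 and 3 were below all saline rats and the other METH rats were inside the saline range. For Pnoc the log2 fold change was -0.46 (standard error 0.35, 95% interval -1.21 to 0.29, FDR = 0.635 by the same test), and it was -0.22 without saline rat 3, -0.33 without METH rat 3 and -0.44 without both METH rat 3 and saline rat 1. The interval corresponds to a ratio between 0.432 and 1.23, so that it holds both lower and higher levels in METH rats.

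The counts behind the precursors differed widely, and so did the spread. Pdyn, Tac1 and Penk each had at least 6381 counts in every rat. At their mean counts, counting alone gives a coefficient of variation of at most 1.15%, and their spread between saline rats was 5.86%, 7.38% and 10.3% of the mean. Pnoc varied by 38.0% between saline rats and 35.3% between METH rats, where counting alone gives 14.3%. Levels of different genes were not ranked against each other, because no transcript lengths of the annotation used were at hand.

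**Figure D2:**
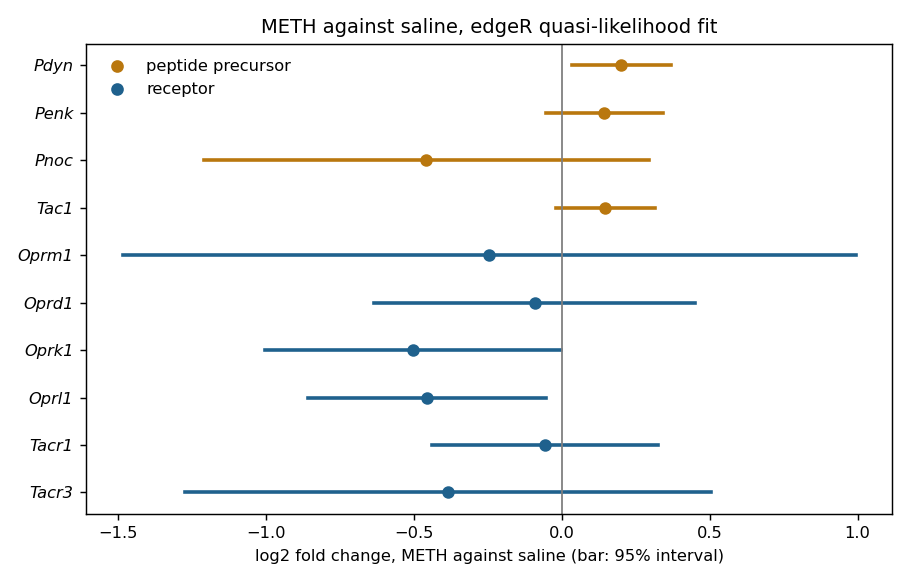
Log2 fold change of METH against saline rats for each gene (point) with its 95% interval (bar) in the edgeR quasi-likelihood fit, in ochre for precursors and blue for receptors. The intervals of Pdyn, Oprk1 and Oprl1 do not reach 0, and none of the 10 genes passes an FDR of 0.05 over all genes tested.

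Both receptors with the lowest p-values had lower means in METH rats. Oprk1, the kappa receptor, was at 7.57, 6.85, 12.3 and 10.6 CPM in saline rats 1 to 4 and at 6.02, 9.19, 4.91 and 6.17 CPM in METH rats 1 to 4. METH rats 1, 3 and 4 were below every saline rat, and METH rat 2 was inside the saline range. Its log2 fold change was -0.50 (standard error 0.23, 95% interval of the ratio 0.499 to 0.997), a ratio of 0.705. Its FDR was 0.443 by the edgeR quasi-likelihood test (unadjusted p = 0.0486). The exact permutation test gave p = 0.143 (two-sided). It was -0.34 without saline rat 3, -0.39 without METH rat 3 and -0.71 without METH rat 2.

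Oprl1, the nociceptin receptor, was at 7.19, 8.55, 9.95 and 6.24 CPM in saline rats 1 to 4 and at 6.51, 5.28, 5.25 and 6.22 CPM in METH rats 1 to 4. METH rats 2, 3 and 4 were below the lowest saline rat, the last of them by a margin within counting error, and METH rat 1 was above saline rat 4 only. For Oprl1 the log2 fold change was -0.46 (standard error 0.19, 95% interval -0.86 to -0.05), a ratio of 0.729, with an FDR of 0.398 by the edgeR quasi-likelihood test (unadjusted p = 0.0294) and a two-sided p of 0.0571 in the exact permutation test. Without 1 rat it ranged from -0.56 to -0.33, the latter without saline rat 3, and without saline rat 1 it was -0.50.

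Oprd1, the delta receptor, was at 4.17, 4.30, 7.15 and 6.19 CPM in saline rats 1 to 4 and at 4.16, 7.43, 4.24 and 4.64 CPM in METH rats 1 to 4. The values fell into a higher cluster of saline rats 3 and 4 and METH rat 2 and a lower one of the other 5 rats, so that the spread within each group was larger than the difference between them. Oprk1 was also highest in these same 3 rats. The log2 fold change of Oprd1 was -0.09 (standard error 0.25, 95% interval -0.64 to 0.45, FDR = 0.925 by the edgeR quasi-likelihood test). Its sign depended on the rats, with 0.065 without saline rat 3, -0.33 without METH rat 2, -0.012 without METH rat 3, -0.20 without saline rat 1 and -0.12 without both of the latter.

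Oprm1, the mu receptor, was read 38, 26, 32 and 17 times in saline rats 1 to 4 and 20, 56, 3 and 18 times in METH rats 1 to 4. This corresponds to 2.09, 1.30, 1.55 and 0.803 CPM in saline rats and 0.979, 2.67, 0.169 and 0.949 CPM in METH rats. The METH rats held both the highest and the lowest value of all 8, and the count in METH rat 3 is at the floor of 3 counts. Its mean log2 CPM of 0.51 was below the level required for a call. The log2 fold change was -0.24 with a 95% interval from -1.48 to 0.99, and it was 0.11 without METH rat 3, -1.01 without METH rat 2 and -0.01 without saline rat 1. With all 8 rats it was -0.62 by limma-voom and -0.51 with the rat number as a replicate block. Ipcef1, a gene that overlaps Oprm1 in the RefSeq annotation of assembly GRCr8, was also lowest in METH rat 3, with 2 counts against 18 to 55 in the other rats. The kit does not mark strand and the counting rule for overlapping genes is not given in the sources used here, so that reads of both genes could not be told apart where they overlap.

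Tacr1, the receptor of substance P, was at 14.6, 10.3, 14.4 and 14.6 CPM in saline rats 1 to 4 and at 14.7, 14.4, 8.70 and 14.0 CPM in METH rats 1 to 4. In each group 3 rats lay close together and 1 lay lower, namely saline rat 2 and METH rat 3. The log2 fold change was -0.06 (95% interval -0.44 to 0.33, FDR = 0.936 by the edgeR quasi-likelihood test). It was 0.092 without METH rat 3 and -0.16 without saline rat 2, so that its direction depended on single rats.

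Tacr3, the receptor of neurokinin B, had the widest spread of the 10 genes in saline rats. It was at 5.87, 2.15, 9.76 and 6.57 CPM in saline rats 1 to 4 and at 3.13, 3.90, 2.99 and 8.65 CPM in METH rats 1 to 4. All METH rats were within the saline range, and METH rat 4 was well above the other METH rats. Hypothalamic neuron markers summed to 85.3 CPM in METH rat 4 and to 45.3 CPM in saline rat 2, where Tacr3 was lowest, against 11.4 to 16.7 CPM in the other rats, and their part in the values of Tacr3 was not tested. The coefficient of variation was 51.3% in saline rats and 57.4% in METH rats, against 9.68% from counting alone. For Tacr3 the log2 fold change was -0.38 (standard error 0.41, 95% interval -1.27 to 0.51, FDR = 0.752 by the edgeR quasi-likelihood test), and it ranged from -0.86 without METH rat 4 to -0.06 without saline rat 3. It was -0.22 without METH rat 3 and -0.24 without both METH rat 3 and saline rat 1.

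The receptors were thus below 0 in 6 of 6 fitted log2 fold changes, with a median of -0.31. Without METH rat 3 they were below 0 in 4 of 6, with a median of -0.12. With saline rat 1 left out as well, the log2 fold change was 0.34 for Oprm1, 0.13 for Tacr1, -0.48 for Oprk1 and -0.46 for Oprl1, and among the precursors 0.17 for Pdyn and 0.19 for Tac1. Among all genes tested with a mean log2 CPM below 4, where the receptors lie, 2453 of 4421 were below 0 (median -0.04). Among those with a mean log2 CPM above 8, where Pdyn, Tac1 and Penk lie, 504 of 768 were above 0 (median 0.05). The 10 highest genes held 6.06% of the counts in METH rat 3 and between 4.60% and 5.43% in the other rats. The part of this difference in the values of the receptors was not tested.

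**Figure D3:**
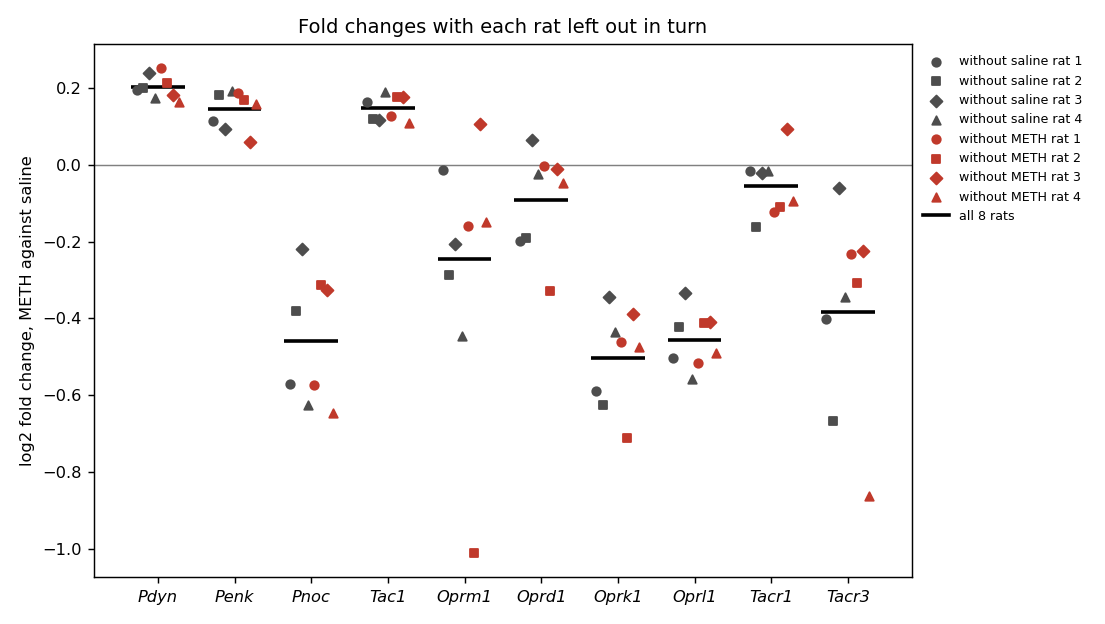
Log2 fold change of METH against saline rats with all 8 rats (black line) and with each rat left out in turn (grey when a saline rat was left out, red when a METH rat was left out, with a marker shape for each rat number). Pdyn, Penk and Tac1 stay above 0 and Pnoc, Oprk1, Oprl1 and Tacr3 below 0, while Oprm1, Oprd1 and Tacr1 cross 0.

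To compare the members within a library, counts of 1 gene were divided by those of another in the same rat, which removes any effect of scaling. The 6 ratios were not tested, and their groups overlapped. Pdyn/Drd1, prodynorphin relative to the D1 receptor transcript of the same projection neurons, was 0.738, 0.785, 0.745 and 0.649 in saline rats 1 to 4 and 0.745, 0.789, 0.948 and 0.964 in METH rats 1 to 4. METH rats 2, 3 and 4 exceeded all saline rats, METH rat 2 by little. The mean ratio was 0.729 ± 0.0574 in saline rats and 0.861 ± 0.111 in METH rats (SD, n = 4 each). Drd1 itself had a log2 fold change of -0.03 (FDR = 0.888 by the edgeR quasi-likelihood test). In bulk tissue, fewer cells of a type and less RNA per cell cannot be told apart.

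Tac1/Drd1 was 1.04, 0.993, 0.865 and 1.01 in saline rats 1 to 4 and 1.11, 0.975, 1.10 and 1.24 in METH rats 1 to 4. METH rats 1, 3 and 4 lay above the saline range. Pdyn/Tac1, which sets both direct-pathway precursors against each other, averaged 0.752 ± 0.0939 in saline rats and 0.779 ± 0.0825 in METH rats (SD, n = 4 each), a difference smaller than the spread within either group. Between the pathways, Pdyn/Penk averaged 0.150 ± 0.0233 in saline rats and 0.156 ± 0.0144 in METH rats, and Tac1/Penk averaged 0.200 ± 0.0199 and 0.202 ± 0.0309 (SD, n = 4 each). Penk/Drd2, enkephalin precursor relative to the D2 receptor transcript of indirect-pathway neurons, averaged 5.36 ± 0.621 in saline rats and 5.21 ± 0.451 in METH rats. Drd2 had a log2 fold change of 0.19 (unadjusted p = 0.0361, FDR = 0.421 by the edgeR quasi-likelihood test), a size close to that of Pdyn. Of 7 striatopallidal markers, Drd2 was the only 1 above 0 and the other 6 were below 0 (median -0.12). Penk was not set against those other markers, so that its ratio rests on Drd2 alone.

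**Figure D4:**
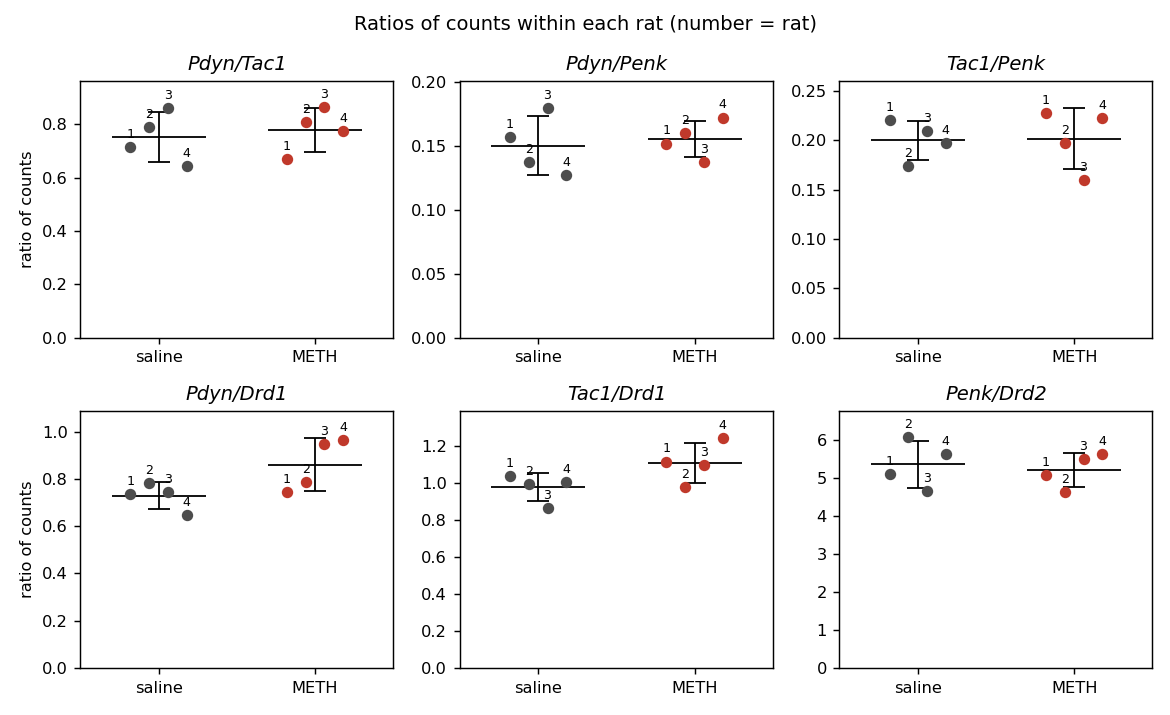
Ratios of raw counts within each rat (y axis from 0, grey for saline, red for METH, the number beside a point is the rat), with the group mean and SD (n = 4 per group). Pdyn/Drd1 and Tac1/Drd1 each have 3 METH rats above the highest saline rat, and the ratios among Pdyn, Tac1 and Penk average nearly the same in both groups.

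Other genes of these peptide systems were described in 4 lists, in none of which a gene was called by the edgeR quasi-likelihood test. The first held other ligands and receptors, of which 7 of 11 could be tested. Tac3, the neurokinin B precursor, was between 23.2 and 32.4 CPM in all 8 rats, and its log2 fold change was 0.02 (95% interval -0.26 to 0.29). Pomc, the precursor of beta-endorphin, was between 2.06 and 5.59 CPM, and its log2 fold change was -0.12 (95% interval -0.74 to 0.50). Tacr2, the third tachykinin receptor, had 2 and 5 counts in saline rats 1 and 2 and none in the other 6 rats. In this list 1 gene had an unadjusted p below 0.05 (11.1% of all genes tested). This was Ogfr, the opioid growth factor receptor, which binds Met-enkephalin and is unrelated to the classical opioid receptors. It was between 84.4 and 100.04 CPM in saline rats and between 102 and 120.4 CPM in METH rats, without overlap (log2 fold change 0.23, FDR = 0.324 by the same test).

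The list of peptide processing and storage had the largest fold change of the 4 lists. Of its 16 tested genes, 3 were higher and 2 lower at an unadjusted p below 0.05 (6.26% and 4.88% of all genes tested), with a median log2 fold change of 0.01. Pcsk1, the prohormone convertase that makes the first cuts in many precursors, was read 144, 155, 222 and 295 times in saline rats 1 to 4 and 383, 445, 244 and 472 times in METH rats 1 to 4. METH rat 3, at 13.8 CPM, was just under saline rat 4 at 13.9 CPM, and the other METH rats were above all saline rats. The means were 10.1 ± 2.91 CPM in saline rats and 19.6 ± 4.65 CPM in METH rats (SD, n = 4 each), a log2 fold change of 0.96 with a 95% interval from 0.51 to 1.41. The edgeR quasi-likelihood test gave an FDR of 0.0738. It was called by DESeq2 (FDR = 0.00163), when every gene with 1 count was tested (FDR = 0.0461 by edgeR), and when METH rat 3 (FDR = 0.0381) or saline rat 4 (FDR = 0.0282) was left out, and it was not called by limma-voom. Vgf, the precursor of secreted granule peptides, was at 406 ± 34.5 CPM in saline rats and 580 ± 114 CPM in METH rats (SD, n = 4 each), with a log2 fold change of 0.51 (FDR = 0.0999 by the edgeR quasi-likelihood test). It was called by DESeq2 (FDR = 0.00553) and when METH rat 1 was left out (FDR = 0.0173 by edgeR), and not by limma-voom or with the replicate block. Its groups overlapped, with the lowest METH rat at 451 CPM and the highest saline rat at 453 CPM. Furin, another convertase, had a log2 fold change of 0.31, whereas Pcsk2, which makes later cuts in prodynorphin and proenkephalin, had 0.05 (95% interval -0.18 to 0.29). The 2 lower genes were Cpd, a carboxypeptidase (-0.35, FDR = 0.314 by the edgeR quasi-likelihood test), and Cadps, which primes dense-core vesicles for release (-0.29, FDR = 0.421).

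Of 14 tested genes for enzymes that break peptides down, 0 had an unadjusted p below 0.05 in the edgeR quasi-likelihood test (11.1% of all genes tested). DESeq2 and limma-voom called none of them. Mme (neprilysin), which cleaves enkephalins and substance P, had a log2 fold change of -0.08 (95% interval -0.42 to 0.26). Enpep, an aminopeptidase, had the lowest p of the list (log2 fold change -0.55, unadjusted p = 0.179). Of 31 tested genes for receptor coupling and desensitization, 3 were lower (Grk5, Gnai1 and Plcb4) and 0 higher at an unadjusted p below 0.05. Among all genes tested 4.88% were lower and 6.26% higher at that level. The median log2 fold change of the list was -0.05. Grk5, a kinase that desensitizes G-protein-coupled receptors, was at 22.4 ± 3.50 CPM in saline rats and 16.2 ± 2.62 CPM in METH rats (SD, n = 4 each), with a log2 fold change of -0.46 (FDR = 0.251 by the edgeR quasi-likelihood test).

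**Figure D5:**
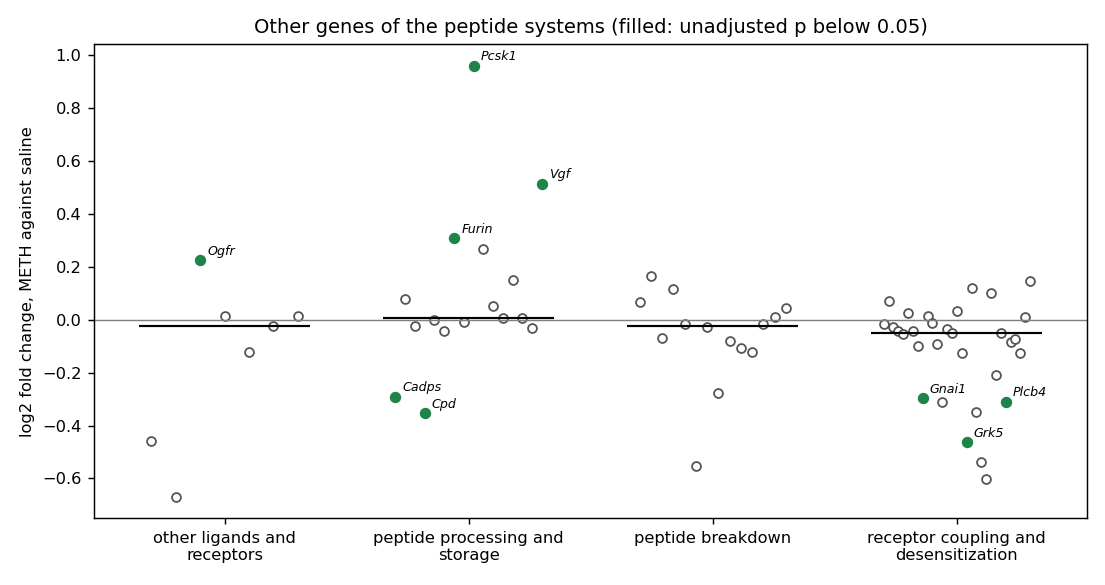
Log2 fold change of METH against saline rats for the tested genes of 4 lists (1 point per gene, spread along the x axis in alphabetical order), with the list median as a line. Filled points have an unadjusted p below 0.05 and are named, and none passes an FDR of 0.05.

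Markers of the cells that make these peptides and receptors were summed within each rat. Striatonigral (direct-pathway) markers summed to 792 to 862 CPM in saline rats and 794 to 871 CPM in METH rats, and striatopallidal (indirect-pathway) markers to 1836 to 2102 CPM and 1758 to 2128 CPM. Striatal interneuron markers summed to 410.0 to 474 CPM and 395 to 452 CPM. Striosome markers summed to 913 to 1156 CPM in saline rats and 727 to 918 CPM in METH rats, with the lowest sum in METH rat 3, where Oprm1 was also lowest. Within that list 4 of 5 genes had a log2 fold change below 0, where 6172 of all 12014 genes tested were below 0. Of the 5, Lypd1 had the lowest p (-0.36, FDR = 0.193 by the edgeR quasi-likelihood test), and Kremen1 had 0.02. Matrix markers summed to 1058 to 1203 CPM in saline rats and 963 to 1081 CPM in METH rats, with 0 of 5 called by edgeR or limma-voom and 1, Sv2b (-0.26), called by DESeq2. In the matrix list 4 of 5 genes were also below 0 (median -0.15), and Sv2b had an FDR of 0.178 by the edgeR quasi-likelihood test. Cortical glutamatergic markers summed to 87.5 CPM in saline rat 1, where Oprm1 was highest among the saline rats. The part of these markers in the values of the receptors was not tested.

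The genes whose profile over the 8 rats was nearest to that of each precursor were found from z-scored log2 CPM, by the root mean square difference, where 0 means the same profile. For Pdyn these were Tmem151b (0.250), Hira (0.326) and Ifnlr1 (0.350). For Penk they were Mrps18a (0.155), Spef1 (0.255) and Pacsin3 (0.287). For Pnoc they were Ndufaf6 (0.265), Rab3il1 (0.319) and Myt1 (0.333), and for Tac1 Rrp1 (0.356), Fam20a (0.407) and Nfyb (0.417). None of these 12 genes was called by the edgeR quasi-likelihood test. Ifnlr1 and Fam20a, with a mean log2 CPM of 0.10 and 0.03, were below the level required for a call. Whether these profiles were nearer than chance allows among all genes tested was not tested.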

How the data were processed

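Striatal mRNA of 8 rats was sequenced with a kit that does not mark strand. The authors deposited 1 table of raw counts of read pairs per gene (17337 genes, all columns mapped to a rat by name), made per the submitters' processing notes with cutadapt 1.18, STAR 2.7.0e and featureCounts of Subread 1.6.4 on build rn6. The annotation, the strand setting and the treatment of multi-mapping reads are not given in the sources used here.

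Genes passing edgeR's filterByExpr (minimum count 10) were scaled by TMM, and the groups were compared by the quasi-likelihood F-test (edgeR 4.0.16, limma 3.58.1, R 4.3.3), METH against saline without covariates, as the labels give 4 rats per group. FDRs are Benjamini-Hochberg adjusted over all 12014 genes tested, and a call required an FDR below 0.05 and a mean log2 CPM above 1. Log2 CPM for exact permutation tests used a prior count of 2. Intervals are 95% and come from the quasi-likelihood fit, whose estimate of the spread between rats borrows from all genes tested. The floor of 3 counts corresponded to 0.142 to 0.169 CPM and covers counting error only. The same steps were tested on simulated data for METH against saline rats (12014 genes, 200 changed by 1 on the log2 scale). Of the changed genes 160 were called, all in the right direction, with 7 unchanged genes. Every member had a fitted log2 fold change of smaller size than 1, the largest being -0.50 for Oprk1. Recovery of differences as small as those of the members was not tested.

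The members, lists and markers were chosen with earlier results of these data known. All members were named, as were called genes of each list or else that with the lowest p, and the 3 genes most alike to each precursor; other list genes were named after their values were seen. Alternatives were DESeq2 1.42.0, limma-voom, other scalings, a robust fit, no filter beyond 1 count, a replicate block and leaving out rats. The values of 1 listed marker are not reported here.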

Additional observations from a re-analysis of the deposited data

Results flagged for a closer look

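Single rats stood apart from the other 3 of their group by Dixon's ratio, which is the gap to the nearest rat as a share of the group's range, where it exceeded the 95% critical value for 4 samples. For Tacr1, saline rat 2 (10.3 CPM against 14.4 to 14.6 CPM) had a share of 0.959 and METH rat 3 (8.70 CPM against 14.0 to 14.7 CPM) a share of 0.899. These were 2 of 20 groups tested over the 10 genes, where chance flags about 1 in 20.

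Among the summed marker lists 3 of 28 groups had such a rat. The matrix markers were low in METH rat 3 (963 CPM, share 0.955), the cortical glutamatergic markers were high in saline rat 1 (87.5 CPM, share 0.893), and the hypothalamic markers were high in METH rat 4 (85.3 CPM, share 0.855). None of the 12 groups of count ratios had a rat past the critical value.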

How the results depend on the processing

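No member was called under any of the 18 alternatives, and Pdyn, Penk, Tac1, Pnoc, Oprk1, Oprl1 and Tacr3 kept their direction in the 17 that refit the fold change. The log2 fold change turned positive for Oprd1 without saline rat 3 (0.065), for Oprm1 without METH rat 3 (0.11) and without both METH rat 3 and saline rat 1 (0.34), the latter choice made after seeing the data, and for Tacr1 in the same fits (0.092 and 0.13). When 1 rat was left out, Oprd1 lay between -0.33 and 0.065, Oprm1 between -1.01 and 0.11, and Tacr1 between -0.16 and 0.092. The number of genes called was 62, of which 54 were higher and 8 lower. It was 186 (138 and 48) by DESeq2, 37 (35 and 2) with the replicate block and 36 (31 and 5) without both rats, and lay between 37 and 70 (35 to 66 higher, 2 to 9 lower) when 1 rat was left out, lowest without saline rat 2. Testing every gene with 1 count gave 13 lower genes. In the list of peptide processing and storage 2 genes were called by DESeq2, 1 when every gene with 1 count was tested, and 0 to 1 when a rat was left out. The causes were not tested. Rats with the same number are different animals, and their deviations from the group means correlated between -0.201 and 0.0355. With 1 value per rat number and no reference, these correlations cannot tell whether rats of the same number shared a batch. With the replicate block the FDR was 0.616 for Pdyn, 0.651 for Oprl1 and 0.668 for Oprk1. Counting alone gives a coefficient of variation of 19.5% for Oprm1 and 14.3% for Pnoc.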

Other observations

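Among markers of other cell types, 1 gene was called by the edgeR quasi-likelihood test. Cx3cr1, the fractalkine receptor of microglia, fell by 0.73 on the log2 scale in METH rats (FDR = 0.0408). All 6 microglial markers had a log2 fold change below 0, and their sum was 236 to 275 CPM in saline rats and 198 to 243 CPM in METH rats. In the endothelial list 5 of 5 tested markers were below 0, with 2 at an unadjusted p below 0.05 and 0 called. Of all 12014 genes tested, 6172 were below 0. The astrocyte and oligodendrocyte lists had 0 called genes and 0 at an unadjusted p below 0.05 by the edgeR quasi-likelihood test, and 0 called by DESeq2 or limma-voom. At an unadjusted p below 0.05, the list of thalamic and septal neurons had 1 of 5 genes lower (Prkcd). That of choroid plexus had 1 of 3 higher (Clic6), and that of hypothalamic neurons 1 of 4 higher (Oxt). In each of these lists 0 genes were called by edgeR, DESeq2 or limma-voom. Among all genes tested 6.26% were higher and 4.88% lower at that unadjusted p. The hypothalamic sum was 85.3 CPM in METH rat 4 and 12.7 to 16.7 CPM in the other METH rats, against 11.4 to 45.3 CPM in saline rats. The markers shared by both kinds of projection neurons summed to 10446 to 11770 CPM in saline rats and 11261 to 14401 CPM in METH rats, with 1 of 7 higher at an unadjusted p below 0.05 (Ppp1r1b, log2 fold change 0.25, FDR = 0.328 by edgeR). Most of that sum was Ppp1r1b alone, at 6785 to 7594 CPM in saline rats and 7456 to 10288 CPM in METH rats. Of the 7 markers 3 were above 0 and 4 below 0, with a median log2 fold change of -0.02. Neither these lists nor the members were tested for a relation to each other.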
